A study of Mus musculus with 4 samples.

Results

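Many Rab GTPases and the genes of the secretory coats take part in carrying newly made protein from the endoplasmic reticulum (ER) to the cell surface. The members were taken as all protein-coding mouse genes whose symbols begin with Rab, Sec or Tmed and a number, or name a subunit of the COPI coat. Because the rule goes by name, the set also holds genes outside this route, such as endosomal Rabs and Sec14-like lipid-binding proteins. This gave 117 of the 21887 protein-coding genes of the RefSeq annotation of GRCm38.p6 (mm10). By function they were 8 COPI coat genes, 11 COPII coat genes, 6 genes of the protein translocation channel (translocon), 11 genes of the p24 cargo receptors (Tmed), 59 Rab GTPases, 10 regulators or effectors with a Rab symbol and 12 other Sec genes.

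Acetylation of histone H3 at lysine 27 (H3K27ac), a mark of active promoters and enhancers, had been profiled by chromatin immunoprecipitation and sequencing in primary chondrocytes of C57Bl/6 mice, grown ex vivo as micromass cultures. The Cre library came from cells given an adenovirus with Cre recombinase and carries the label of an hdac3 knockout. The GFP library came from cells given a GFP adenovirus and carries the label of wild type. Cre cells and GFP cells below mean these 2 libraries. Each condition had 1 H3K27ac library and 1 deposited peak list, so every difference below is between 2 libraries with no replicate check, and 2 input libraries were not analysed here. How many mice or cultures stood behind a library, and how completely Hdac3 was deleted, the sources used here do not say, and H3K27ac is no measure of a deletion.

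In background, secretory and membrane proteins enter the ER through the Sec61 channel, leave it in carriers formed by the COPII coat, and are sorted by COPI, which also returns escaped ER proteins from the Golgi. Rab GTPases mark each membrane of this route and of the endosomes, and recruit the factors that move, tether and fuse carriers there. Chondrocytes secrete large amounts of collagen and proteoglycan, and mutations of the COPII genes sec23a and sec24d in zebrafish disturb cartilage, with collagen held back in the ER.

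The Cre list held 13130 peaks and the GFP list 12873, and the median height of a peak was 12 fragments in both. Height here is the summit pileup, the whole number of sequenced fragments stacked at a peak's highest point, which was solved from the fold and p-value that the authors' lists give for each peak. Pileups ran from 7 to 63 fragments in Cre cells and from 7 to 58 in GFP cells, and the background pileup was 1.01 fragments in Cre cells and 0.949 in GFP cells. Single peaks therefore rest on few fragments, and the sources used here do not give read totals. All 9 chondrocyte marker genes examined (such as Col2a1 and Acan) had peaks in both libraries. Of 6 macrophage and blood markers, 0 had a peak in the Cre list, against 1 in the GFP list (Cd68), and the 10 endothelial, muscle and adipocyte markers had none in either list. Of 4 osteoblast markers, 1 (Sp7) had peaks in both lists.

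The promoters of 6 members are shown because an acetylation peak lay on these bases, in both libraries for 5 of them and in the GFP library alone for Sec23b. The highest peak at a gene end reached these bases in few members. It did so in both lists at 10 of the 37 members with such peaks in both. Of members with such a peak in 1 list, it did so at 0 of 6 (Cre) and 1 of 8 (GFP). From those of both lists the tallest of each class named next was taken. They cover 1 gene for the COPI coat (Copa), 2 for COPII (Sec24c, Sec23b), 1 each for the translocation channel, the p24 family and the Rabs (Sec61b, Tmed1, Rab28). Each is the 250 bases upstream of the RefSeq start in GRCm38.p6, read 5′ to 3′ on the strand of the gene. Capitals mark 4 short motifs on either strand: CCAAT (the letters bound by NF-Y), GGGCGG (the GC box of Sp factors), TGACGT (the core of sites for CREB and ATF factors) and the shorter word ACGTG.
Copa: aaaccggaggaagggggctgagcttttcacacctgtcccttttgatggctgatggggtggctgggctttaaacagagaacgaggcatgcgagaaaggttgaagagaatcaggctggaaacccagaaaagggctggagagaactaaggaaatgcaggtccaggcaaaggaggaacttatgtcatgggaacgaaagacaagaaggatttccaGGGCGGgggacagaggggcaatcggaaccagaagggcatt
Sec24c: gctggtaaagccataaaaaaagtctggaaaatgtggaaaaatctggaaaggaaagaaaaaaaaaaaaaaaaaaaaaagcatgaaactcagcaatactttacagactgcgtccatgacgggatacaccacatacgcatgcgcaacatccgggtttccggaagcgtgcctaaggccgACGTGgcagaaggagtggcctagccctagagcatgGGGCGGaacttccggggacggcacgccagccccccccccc
Sec61b: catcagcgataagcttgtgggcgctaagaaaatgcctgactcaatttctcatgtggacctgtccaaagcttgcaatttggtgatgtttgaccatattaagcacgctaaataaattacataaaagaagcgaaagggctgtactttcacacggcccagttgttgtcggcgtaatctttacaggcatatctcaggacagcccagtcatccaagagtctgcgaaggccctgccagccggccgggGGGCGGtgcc
Tmed1: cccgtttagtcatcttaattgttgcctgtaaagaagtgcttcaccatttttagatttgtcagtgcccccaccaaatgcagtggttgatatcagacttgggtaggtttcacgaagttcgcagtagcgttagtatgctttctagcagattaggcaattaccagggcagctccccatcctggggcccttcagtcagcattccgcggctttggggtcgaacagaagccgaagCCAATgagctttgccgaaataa
Rab28: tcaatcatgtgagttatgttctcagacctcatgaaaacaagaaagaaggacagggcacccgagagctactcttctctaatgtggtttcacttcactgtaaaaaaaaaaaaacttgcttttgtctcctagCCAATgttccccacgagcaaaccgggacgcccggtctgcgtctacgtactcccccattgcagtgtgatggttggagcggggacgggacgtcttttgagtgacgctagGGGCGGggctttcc
Sec23b: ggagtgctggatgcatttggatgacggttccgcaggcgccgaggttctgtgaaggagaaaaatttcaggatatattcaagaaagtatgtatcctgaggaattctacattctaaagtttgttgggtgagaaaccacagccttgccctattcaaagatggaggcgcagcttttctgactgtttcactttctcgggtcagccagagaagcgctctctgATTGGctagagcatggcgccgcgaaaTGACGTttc
The sequences lie at chr1:172082279-172082528 (Copa, plus strand), chr14:20674071-20674320 (Sec24c, plus), chr4:47474411-47474660 (Sec61b, plus), chr9:21510235-21510484 (Tmed1, minus), chr5:41708180-41708429 (Rab28, minus) and chr2:144555979-144556228 (Sec23b, plus). Of the 250 bases, peaks covered 172 in Cre cells and 134 in GFP cells at Copa, and 91 in Cre cells and 83 in GFP cells at Sec24c. They covered 167 in Cre cells and 163 in GFP cells at Sec61b, and 181 in Cre cells and 178 in GFP cells at Tmed1. At Rab28 they covered 160 in Cre cells and 166 in GFP cells. At Sec23b they covered 0 bases in Cre cells and 146 in GFP cells. Sec24c, Sec61b, Tmed1 and Rab28 thus differed by less than 10 bases, Copa had the longer cover in the Cre library, and Sec23b was marked in the GFP library alone. As these promoters were picked for their peaks, their likeness between the libraries does not stand for the other members.

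Members were read first by whether a peak overlapped the 1 kb on either side of an annotated gene end, which takes in the promoter. Of the 117 members, 37 had such a gene-end peak in both lists (31.6%, exact Clopper-Pearson 95% interval 23.3% to 40.9%), against 9.26% of all protein-coding genes. A gene-end peak in the Cre list alone was found at 6 members (5.13%, interval 1.9% to 10.8%), where all genes gave 4.28%. A gene-end peak in the GFP list alone was found at 8 members (6.84%, interval 3.0% to 13.0%), where all genes gave 4.77%. The Rab and coat genes thus carried marks shared by both libraries more often than the average gene, while their share of marks seen in 1 library was near the background. Intervals cover counting error only.

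Over the wider neighbourhood of each gene, its body with 10 kb on each side, 52 members had peaks in both lists (19.7% of all genes did), 6 in the Cre list alone (6.31% of all genes) and 12 in the GFP list alone (6.38%). The other 47 members had no peak there in either list. The neighbourhoods held 151 peaks of the Cre list and 179 of the GFP list.

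The coat and channel genes were marked more often than the Rabs. Gene-end peaks in at least 1 list were present at 87.5% of COPI genes (interval 47.3% to 99.7%), 72.7% of COPII genes (39.0% to 94.0%) and 66.7% of channel genes (22.3% to 95.7%), against 36.4% of p24 genes and 33.9% of Rab GTPases (22.1% to 47.4%). Among all protein-coding genes the share was 18.3%. With classes this small the intervals overlap, so the order of the classes is a description of these libraries.

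**Figure D1:**
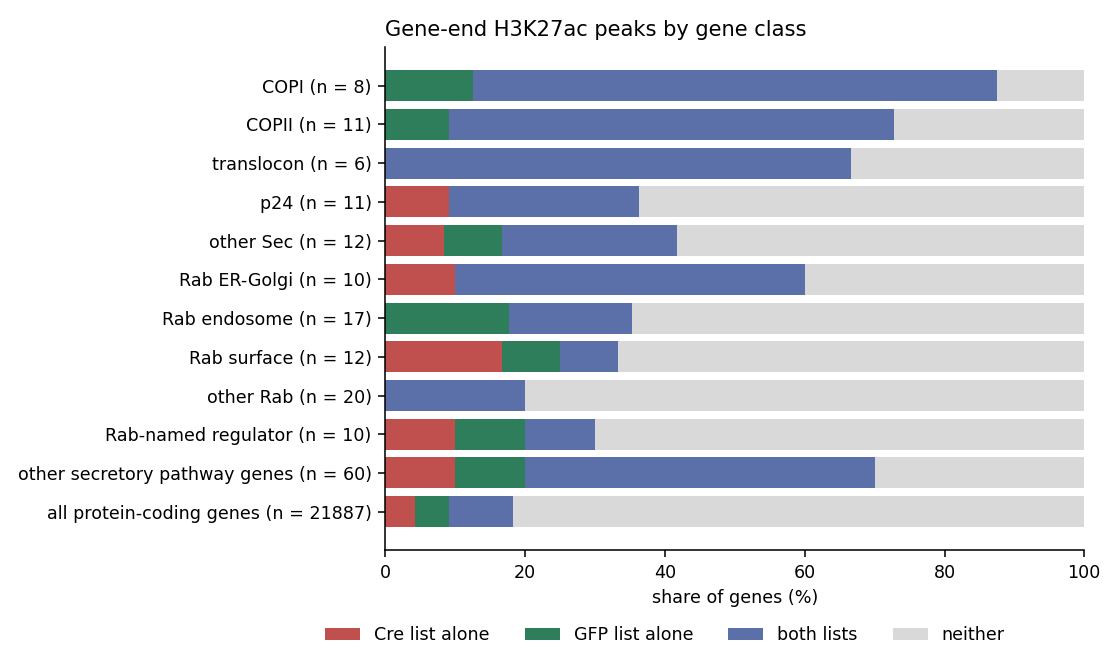
Members with a gene-end peak, by class: each bar gives the percentage of the genes of a class, on the horizontal axis, with a gene-end peak in the Cre list alone, the GFP list alone, both lists or neither, with the Rab GTPases split by site and with 60 other secretory pathway genes and all protein-coding genes for comparison. COPI, the translocation channel and COPII have the longest parts marked in both lists (6 of 8, 4 of 6 and 7 of 11 genes), and the Rab GTPases are mostly unmarked (39 of 59).

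The COPI coat was marked at 7 of its 8 genes. Copa, the alpha subunit of the coat, had 4 gene-end peaks in each list, with a highest pileup of 17 fragments in Cre cells and 15 in GFP cells, and all but 1 of these peaks were also within 1 kb of an end of the neighbouring gene Ncstn. Copz1, a zeta subunit, had the highest COPI peak, with 22 fragments in Cre cells and 25 in GFP cells. Copg1 (gamma) had 19 fragments in Cre cells and 14 in GFP cells, and Cope (epsilon) had 18 in Cre cells and 13 in GFP cells.

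Lower peaks marked Copb2, the beta-prime subunit, with 13 fragments in Cre cells and 10 in GFP cells, and the 3′ end of Copz2, the second zeta gene, with 11 in each. At Copb2 the Cre peak of 13 fragments did not overlap the GFP peak, and the Cre peak that did had 9. Taken over the 6 COPI genes with peaks in both lists, the median pileup was 17.5 in Cre cells and 13.5 in GFP cells, and 4 genes were higher in the Cre library, 1 in the GFP library and 1 was equal. For Copg1 the ratio of Cre to GFP pileup was 1.36 with a conditional binomial 95% interval of 0.645 to 2.93, and for Cope it was 1.38 (0.641 to 3.07), so both intervals include 1.

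Copb1, the beta subunit, was the COPI gene with gene-end peaks in the GFP list alone, both of 10 fragments, at chr7:114253935-114254217 and chr7:114254879-114255150. The nearest peak of the Cre list lay 312 bp away, just outside the 1 kb window and inside the gene. Copb1 thus had a peak of each list in its neighbourhood. Copg2, the second gamma subunit, had no peak in either list.

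Among the COPII genes, 7 of 11 had gene-end peaks in both lists and Sec23b had one in the GFP list alone. Sec31a, which builds the outer cage of the coat with Sec13, had 26 fragments in Cre cells and 34 in GFP cells. Its main promoter peak ran over 827 bp in the Cre list (chr5:100416491-100417317) and 455 bp in the GFP list (chr5:100416537-100416991). Sec16a, a scaffold of ER exit sites, had 32 fragments in each library. Sec31a and Sec16a thus stood above the median of the 37 members with peaks in both lists, which was 17 in Cre cells and 16 in GFP cells.

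Sec24c, a cargo-binding subunit, had 21 fragments in Cre cells and 22 in GFP cells. Sec16b had 16 in Cre cells and 15 in GFP cells, and Sec13 had 16 in each. These genes differed by 1 fragment or less between the libraries. Sec24b, another cargo-binding subunit, had 10 fragments in Cre cells and 14 in GFP cells, a ratio of 0.714 (interval 0.284 to 1.73).

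Sec23a, the inner-coat subunit that stimulates GTP hydrolysis by SAR1, is a known target of the transcription factor CREB3L2 in mouse chondrocytes. Its highest gene-end peak had 16 fragments in Cre cells and 23 in GFP cells, a ratio of 0.696 (0.343 to 1.38). In the Cre list the highest of its peaks (chr12:59011097-59011513) was the one inside the gene, and in the GFP list the one just upstream of the start (chr12:59012249-59012569), where the Cre list had 14 fragments and the GFP list 23. A further peak upstream, also of 14 fragments (chr12:59013000-59013257), was in the GFP list alone, and these upstream bases are within 1 kb of an end of Gemin2 too. At 4 of the 7 shared COPII genes the pileup was higher in the GFP library, at 1 in the Cre library and at 2 equal, with medians of 16 in Cre cells and 22 in GFP cells, and each of the 7 intervals of the ratio includes 1.

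Sec23b, the close relative of Sec23a, had the highest peak of the members marked in 1 list alone. Its GFP peak had 27 fragments (exact Poisson 95% interval 17.8 to 39.3) and a fold of 14.4 in the deposited list, at chr2:144555908-144556124, with its summit at -214 bp from the start. The Cre list had no peak anywhere in the neighbourhood of Sec23b, and its nearest peak lay 28198 bp from the GFP peak. The GFP library had a second, lower peak there of 11 fragments, at an end of the neighbouring gene Rbbp9. A peak missing from a list may still have had fragments below the threshold of the caller, which at the background expectation called no peak under 7 fragments in either list.

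Of the COPII genes with no gene-end peak, Sec24d had the marks inside the gene body. Sec24d encodes a cargo-binding subunit with a known part in collagen export. It had 3 interior peaks covering 662 bp in the Cre list, against 9 covering 1799 bp in the GFP list. The highest were a pair at matching positions, with 17 fragments in Cre cells (chr3:123267535-123267895) and 15 in GFP cells (chr3:123267722-123267887), and 2 peaks of each list overlapped the other list. The further 7 GFP peaks, of 8 to 14 fragments, lay apart from any Cre peak, 4 of them between chr3:123316568-123316779 and chr3:123329615-123329758. Sec24a had 2 peaks in the Cre list, against 3 in the GFP list, of up to 18 fragments in each and mostly at ends of neighbouring genes, and Sec31b had none.

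The translocation channel was marked at 4 of 6 genes, in both libraries each time. Sec61b, the beta subunit of the channel, had 34 fragments in Cre cells and 35 in GFP cells, on nearly the same bases (chr4:47474434-47474600 in the Cre list, chr4:47474437-47474599 in the GFP list). Sec61g (gamma) had 17 fragments in Cre cells and 21 in GFP cells. Sec61a1, which forms the pore itself, had 16 in Cre cells and 13 in GFP cells, but its Cre peak overlapped neither of its 2 GFP peaks. The nearer of these had 9 fragments and lay 354 bp from the Cre peak. Sec62, an accessory channel protein, had 10 fragments in each library.

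Neither list had a gene-end peak at Sec63, the partner of Sec62 that recruits the chaperone BiP, which carried 2 interior peaks in each list with up to 19 fragments in Cre cells and 14 in GFP cells. Sec61a2, the second pore gene, had no peak. The 6 channel genes together had 9 peaks in each list.

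In the p24 family, receptors that gather cargo into coated carriers, 3 of 11 genes were marked in both lists and 7 in neither. Tmed1 had the highest pileup of any member, 46 fragments in Cre cells (Poisson interval 33.7 to 61.4) and 47 in GFP cells (34.5 to 62.5). This peak was only 192 bp wide in the Cre list, against 178 bp wide in the GFP list. Tmed10 had 32 fragments in Cre cells and 35 in GFP cells, and Tmed7 had 19 in Cre cells and 16 in GFP cells. Tmed1 and Tmed10 stood well above the median of 15 for all genes with gene-end peaks in both lists.

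Tmed9 had a gene-end peak in the Cre list alone, of 9 fragments, at chr13:55593603-55593911, where the nearest GFP peak was 28843 bp away. A peak of 9 fragments is close to the lowest that either list holds. Tmed2, Tmed3, Tmed5, Tmed8 and Tmed11 had no peak in either list, Tmed4 a single GFP peak of 10 fragments outside the gene, and Tmed6 peaks at ends of neighbouring genes in both lists.

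Among the Rab GTPases the ER and Golgi members were marked most often, 6 of 10, with 5 in both lists. That is 60.0% (interval 26.2% to 87.8%), against 18.3% of all protein-coding genes. The intervals of the Rab sites overlap, so their order is a description of these libraries. Rab33b, a Golgi Rab with a role in autophagy, had 25 fragments in Cre cells and 19 in GFP cells. Rab2a, which acts between the ER and the Golgi, had 20 in Cre cells and 17 in GFP cells. Rab1a, which drives transport of COPII carriers to the Golgi, had 17 in Cre cells and 14 in GFP cells, with 4 gene-end peaks in the Cre list, against 2 in the GFP list. In these 3 genes the Cre library was higher by 3 to 6 fragments at the gene end. At Rab1a a further GFP peak of 16 fragments (chr11:20202514-20202859) lay just outside the 1 kb window and overlapped the fourth Cre peak, so the count of peaks and the gap in height there depend on the edge of the window.

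Rab6a, which works in traffic within and from the Golgi, had 14 fragments in Cre cells and 10 in GFP cells, and the Golgi Rab Rab30 had 10 in Cre cells and 12 in GFP cells. Rab1b, the second Rab1, had a peak of 19 fragments in the Cre list alone (Poisson interval 11.4 to 29.7), at chr19:5106824-5106977, which is also at an end of Klc2. The nearest GFP peak was 144538 bp away. The caller expected 2.34 fragments there rather than 1.01, so the deposited fold was 5.99. Of the 5 Rabs of this site in both lists, 4 had the higher pileup in Cre cells and 1 in GFP cells. Peaks covered 3563 bp around the 10 genes in the Cre list, against 2732 bp in the GFP list. The Cre list thus gave 56.6% of the length, where all protein-coding genes gave 49.5%, and 56.5% of the number of peaks (interval 34.5% to 76.8%). With gene-end peaks left out the lean turned, and the Cre list gave 34.8% of the length (449 bp in Cre, 841 bp in GFP).

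Endosomal Rabs were marked at 6 of 17 genes (35.3%, interval 14.2% to 61.7%), 3 in both lists and 3 in the GFP list alone. Rab11a, of recycling endosomes, had 21 fragments in Cre cells and 18 in GFP cells. Rab5c, of early endosomes, had 11 in Cre cells and 10 in GFP cells. For Rab4b, a Rab of fast recycling, the highest gene-end pileup was 11 in Cre cells and 16 in GFP cells, at its 3′ end in the Cre list but its 5′ end in the GFP list. Most other peaks around Rab4b lay at ends of Mia and Egln2.

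The 3 endosomal Rabs of the GFP list alone were Rab5a, Rab22a and Rab11b. Rab5a, the founding Rab of early endosomes, had a gene-end peak of 18 fragments upstream of its start (chr17:53478476-53478971) and another of 9, and the nearest Cre peak was 1998 bp away, inside the gene. There both lists had a peak, with 12 fragments in Cre cells and 10 in GFP cells. Rab22a and Rab11b each had a peak of 10 fragments, with no Cre peak in their neighbourhoods. Rab31, of the route between Golgi and endosomes, had no gene-end peak, but 5 peaks in the Cre list, against 4 in the GFP list, and the 3 inside the gene were all in the Cre list.

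Rabs of transport to the surface were marked at 4 of 12 genes (33.3%, interval 9.92% to 65.1%), and 3 of these in 1 list. Rab10, which sends carriers to the plasma membrane, had GFP peaks of 14 and 9 fragments (chr12:3310234-3310493 and chr12:3309110-3309269), and the nearest Cre peak was 545109 bp away. Rab13, of cell junctions, had 14 fragments in the Cre list alone, within 1 kb of ends of Nup210l and Rps27, and a GFP peak lay 696 bp away. Rab8a, of surface and ciliary transport, had 9 fragments in the Cre list alone. Rab26, of secretory granules, had 15 in Cre cells and 21 in GFP cells, in peaks that also lay within 1 kb of an end of Traf7. The strand of Rab26 was not known, so its marked end cannot be named as the 5′ or 3′ end.

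The 20 other Rab GTPases were marked least, at 4 genes, all in both lists. Rab28, a ciliary Rab, had 36 fragments in each library on nearly the same bases (chr5:41708240-41708399 in the Cre list, chr5:41708241-41708406 in the GFP list). Rab24, linked to autophagy, had 15 fragments in Cre cells and 10 in GFP cells, and Rab34, of cilium formation, had 13 in Cre cells and 11 in GFP cells, in peaks that did not overlap. Rab40c, which works in a ubiquitin ligase, had 19 fragments in Cre cells and 9 in GFP cells. Its peaks did not overlap: the Cre summit lay at -667 bp from the start and the GFP summit 788 bp downstream, and the nearest edges of the peaks were 1313 bp apart.

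Of the 10 Rab-named regulators 3 were marked at a gene end (30.0%, interval 6.67% to 65.2%), against 18.3% of all protein-coding genes. Rab5if was marked in both lists, with 12 fragments in Cre cells and 18 in GFP cells. Rab3gap2 was marked in the Cre list alone with 11, and Rab11fip2 in the GFP list alone with 10. Rab3gap2 is a subunit of a complex that acts on Rab3 and Rab18, and Rab11fip2 is an effector that links Rab11 to motors. Among the other Sec genes, Sec11a, a catalytic subunit of the signal peptidase, had 21 fragments in Cre cells and 22 in GFP cells. Sec22b, a SNARE of ER and Golgi transport, had 14 in Cre cells and 13 in GFP cells. Sec14l1, a lipid-binding protein of the Sec14 family, had 21 in Cre cells and 16 in GFP cells.

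Sec22c had 8 fragments in the Cre list alone, and Sec14l2, another Sec14-like lipid-binding protein, had 21 in the GFP list alone, at its 3′ end (chr11:4096929-4097099). The nearest Cre peak was 59242 bp from it. The members with no peak at all included Rab14, Rab18, Rab35 and both Rab9 genes. They also included Rab3b, Rab3c, Rab3d, Rab27b and Rab37, which serve regulated secretion, and the Golgi Rabs Rab6b and Rab43.

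**Figure D2:**
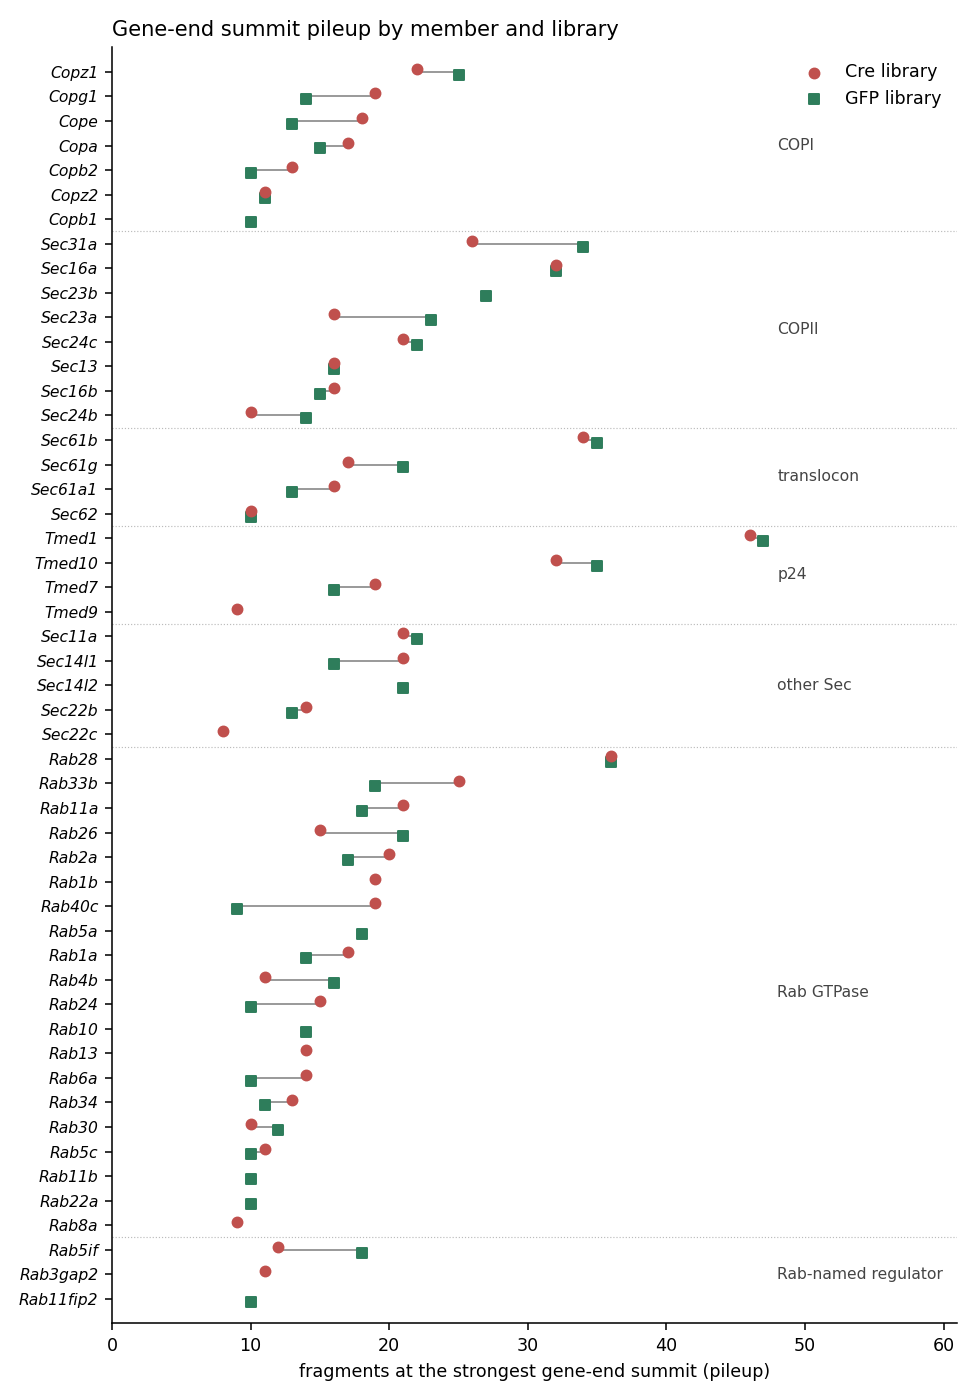
Summit pileup of the highest gene-end peak of each marked member, in fragments, in the Cre library (red circles) and the GFP library (green squares), by class and ordered by height within a class; a lone symbol means no gene-end peak in the other list. Tmed1 is highest, with 46 fragments in Cre cells and 47 in GFP cells, and most pairs lie close together, while Rab40c (19 in Cre, 9 in GFP) stands widest apart relative to its height.

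At the 37 members with gene-end peaks in both lists, heights were close, and a gene-end peak of one list overlapped one of the other at 34 of them (not at Sec61a1, Rab34 and Rab40c). Heights compare the highest gene-end peak of each list, wherever it lay. Those peaks did not overlap each other at Copb2, Rab4b, Sec14l1, Sec23a, Rab24 and Tmed7 either, so the ratio there compares different places. The ratio of Cre to GFP pileup had a median of 1.0 and quartiles of 0.914 and 1.21, and over the 2026 genes of this kind in the whole lists the median was 1.0 and the quartiles 0.833 and 1.2. The Cre pileup was higher at 18 members (46.2% of the 2026 genes), the GFP pileup at 14 (44.3%), and 5 were equal. A difference beyond 1.5-fold was found at 1 member, Rab40c, where 12.1% of the 2026 genes had one. All 37 conditional binomial intervals of the ratio include 1, that of Rab40c running from 0.910 to 5.30. At this depth no difference in height among these 37 was thus outside counting error. Having a peak in both lists leaves out the members marked in 1 list alone, which have no ratio, so nothing is said here of their differences.

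The fold of the deposited lists gave another picture at some members, since the caller divides by a local expectation that was not the same in the 2 lists. Sec16a had 32 fragments in both libraries, yet a fold of 8.01 in the Cre list, against 16.9 in the GFP list, because 3.12 fragments were expected in the Cre list, against 0.949 in the GFP list. Rab28 had a fold of 11.1 in the Cre list, against 19.0 in the GFP list, and Sec13 had 4.13 in the Cre list, against 8.72 in the GFP list, again at equal pileups. At Sec22b it ran the other way, with 7.47 in the Cre list, against 3.69 in the GFP list, at 14 fragments in Cre cells and 13 in GFP cells.

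The library with the higher value was not the same by pileup as by fold at Sec14l1 and Sec24b, and also at Copa, Sec11a, Tmed1 and Sec24c, where the pileups of the libraries differed by 1 or 2 fragments. Sec14l1 was higher by pileup in the Cre library (21 in Cre, 16 in GFP) and lower by fold (6.59 in Cre, 8.72 in GFP), and Sec24b was lower by pileup in the Cre library (10 in Cre, 14 in GFP) and higher by fold (5.48 in Cre, 3.95 in GFP). The expectation was above background at 18 of the 37 members in the Cre list, against 19 in the GFP list. By fold, 21 members were higher in the Cre list, against 16 in the GFP list. The number of fragments, not the fold, is therefore the value compared here.

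**Figure D3:**
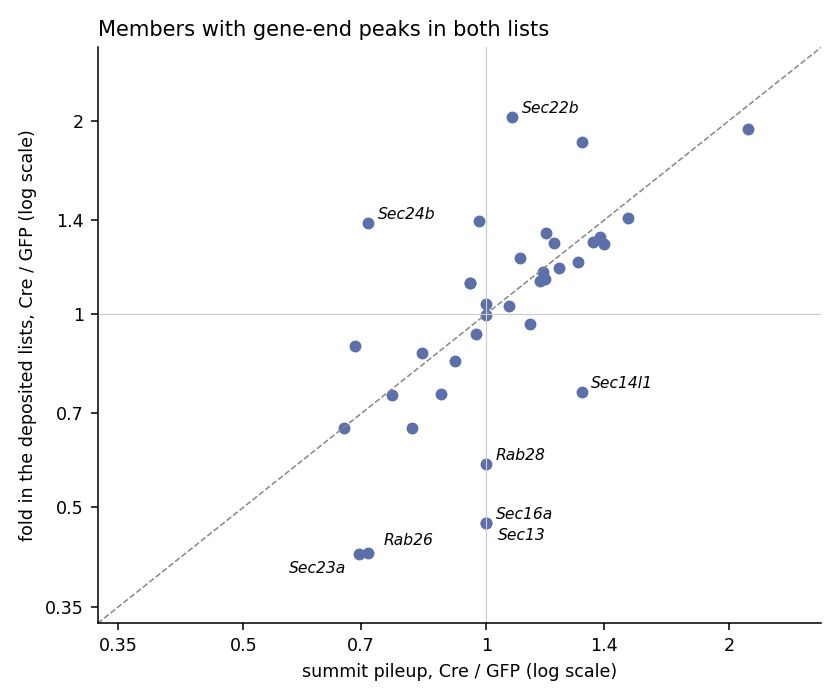
Cre over GFP ratio of the summit pileup (horizontal, log scale) against the same ratio of the deposited fold (vertical, log scale) for the 37 members with gene-end peaks in both lists; the dashed line marks equal ratios. Sec16a, Sec13 and Rab28 stand at a pileup ratio of 1.0 but well below 1 by fold, and Sec22b well above 1 by fold at a pileup ratio of 1.08.

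Members marked in 1 list alone mostly had low peaks. The 6 of the Cre list had a median of 10 fragments (8 to 19), and the 8 of the GFP list a median of 12 (10 to 27). At 15 fragments or more stood 1 of the 6, Rab1b, and 3 of the 8, Sec23b, Sec14l2 and Rab5a, where 17.7% of all Cre-only genes and 14.5% of all GFP-only genes reached that height. A peak of the other list lay elsewhere in the neighbourhood of 3 of the 6 Cre-only members and 2 of the 8 GFP-only members. Rab1b on the Cre side and Sec23b, Sec14l2 and Rab10 on the GFP side had 14 or more fragments in 1 library and no peak around them in the other.

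Counted over whole neighbourhoods, peaks covered 38947 bp around the members in the Cre list, against 44256 bp in the GFP list, so the Cre list gave 46.8% of the sum, against 49.5% over all protein-coding genes. The Cre list gave 45.8% of the number of peaks (interval 40.3% to 51.3%). More bases were covered in the Cre list at 31 members and in the GFP list at 39. By class the Cre share was 49.7% for COPI (3986 bp in the Cre list, against 4039 bp in the GFP list), 42.5% for COPII (6824 bp in Cre, 9248 bp in GFP), 52.2% for the channel, 44.5% for p24, 48.5% for the Rab GTPases, 38.5% for the Rab-named regulators and 51.9% for the other Sec genes. The share over all members turned to 52.9% when only peaks of at least 15 fragments were kept, and the interval of the peak number includes the 49.9% of all genes. With a −log10 q of at least 10 the share was 46.1% for COPII, 45.6% for the Rab GTPases and 44.4% for the channel, so the order of the classes depends on the threshold.

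A few genes held much of this length. Sec14l1 had the largest covered length, 3418 bp in 13 peaks in the Cre list, against 4058 bp in 18 peaks in the GFP list. Rab11fip4, an effector of Rab11, had 2244 bp in 9 peaks in the Cre list, against 3414 bp in 14 in the GFP list, none of them at a gene end, and 6 peaks of each list overlapped the other. Toward the GFP list also lay Sec24d, Rab5a (237 bp in the Cre list, against 1075 bp in the GFP list), Tmed10 (956 bp in Cre, 1812 bp in GFP) and Sec16a (1062 bp in Cre, 1858 bp in GFP). Toward the Cre list lay Sec22c, with 1625 bp in the Cre list, against 534 bp in the GFP list, Rab31 (1374 bp in Cre, 659 bp in GFP) and Copa (2159 bp in Cre, 1446 bp in GFP). At Sec22c all of this but 1 low gene-end peak in the Cre list lay at ends of its neighbours Ss18l2 and Nktr.

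**Figure D4:**
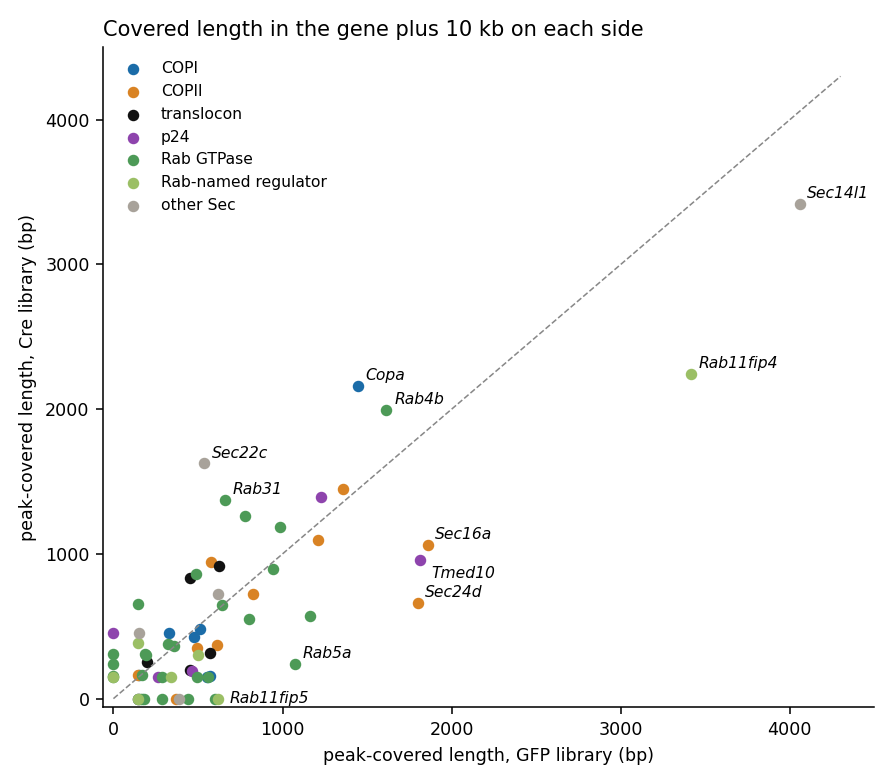
Bases covered by peaks in the gene plus 10 kb on each side, in the GFP library (horizontal) and the Cre library (vertical), 1 point per member coloured by class; the dashed line marks equal length. Sec14l1 and Rab11fip4 lie far right and below the line, with Sec24d, Sec16a, Tmed10 and Rab5a also below it, and Copa, Rab4b, Sec22c and Rab31 lie above it.

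Gene-end peaks of the members recurred between the libraries more often than their other peaks. Of 66 gene-end peaks in the Cre list 74.2% overlapped a GFP peak (interval 62.0% to 84.2%), and of 78 in the GFP list 62.8% overlapped a Cre peak (51.1% to 73.5%), where all genes gave 51.2% for Cre peaks and 49.2% for GFP peaks. Of the 85 remaining Cre peaks 37.6% overlapped (27.4% to 48.8%), and of the 101 remaining GFP peaks 33.7% (24.6% to 43.8%), close to the 37.0% of Cre peaks and 37.5% of GFP peaks over all genes. Peaks at gene ends were also taller, with a median of 15 fragments in Cre cells and 13 in GFP cells, where the other peaks had 12 in Cre cells and 11 in GFP cells. Over all genes the medians were 13 in each library at gene ends, and 12 in Cre cells and 11 in GFP cells for the other peaks. Both contrasts were thus present over all genes too, while the share of gene-end peaks that recurred was higher at the members.

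The marks sat beside the RefSeq start rather than on it. Of the 98 members with a RefSeq start, 62 had it at the annotated gene end and 82 within 100 bp of that end. The largest offset was 5622 bp, so the distances depend on the start used. With strand known for 38 of the 43 members with a gene-end peak in the Cre list, against 40 of the 45 in the GFP list, the highest peak was at the 5′ end of 36 genes in the Cre list, against 38 in the GFP list. Its summit lay 100 to 500 bp upstream of the start in 39.5% of members in the Cre list, against 42.5% in the GFP list, where all genes gave 29.1% for Cre peaks and 31.0% for GFP peaks. Within 100 bp of the start lay 2 summits in each list, which is 5.26% of Cre and 5.0% of GFP summits, where all genes gave 4.2% for Cre peaks and 4.32% for GFP peaks. Another 12 in each list lay 100 to 1000 bp downstream (31.6% of Cre and 30.0% of GFP summits).

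Several of the highest peaks were narrow, upstream and at nearly the same place in both libraries. Counted from the start with upstream negative, the summit stood at -172 bp in Cre cells and -146 bp in GFP cells at Tmed1, and at -141 bp in Cre cells and -131 bp in GFP cells at Rab28. It stood at -143 bp in Cre cells and -154 bp in GFP cells at Sec61b, and at -131 bp in Cre cells and -136 bp in GFP cells at Tmed10. Copg1, by contrast, had its summit 120 bp downstream in the Cre list, against 122 bp downstream in the GFP list. The printed promoters of Tmed1, Rab28 and Sec61b hold these peaks almost whole.

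Several marked ends are shared with another gene, so that a peak there cannot be given to the member alone. Another protein-coding gene had an end within 1 kb of either end of 16 of the 37 members marked in both lists (43.2%, against 47.6% of all such genes). At 7 of them that was the end with the highest peak, such as Copa with Ncstn, Cope with Ddx49, Sec61b with Alg2, Rab24 with Prelid1 and Tmed7 with Eif1a. These counts are taken from the gene end. Taken from the peak instead, the highest peaks of Rab26 (Traf7) and, in the GFP list, of Sec23a (Gemin2) also lay within 1 kb of another gene's end. Of the 6 Cre-only members 3 had such a neighbour at either end (44.0% of all Cre-only genes), 2 of them at the end with the highest peak (Rab13 and Rab1b). Of the 8 GFP-only members 1 had one (42.4% of all GFP-only genes), and 0 at the end with the highest peak.

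Promoter sequences were in the RefSeq table for 98 of the 117 members, 46 of them with a gene-end peak in at least 1 list. In the 250 bases upstream, CCAAT was found on either strand at 52.2% of the promoters with a peak, 34.6% of the 52 without one and 36.5% of 17492 promoters of all genes. GGGCGG was found at 63.0% of promoters with a peak, 71.2% of those without and 42.7% of all. TGACGT was found at 21.7% with a peak, 17.3% without and 7.53% of all, and ACGTG, which can share letters with it, at 32.6% with a peak, 23.1% without and 17.6% of all. These are matches of letters and not sites shown to be bound.

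The GC box and the TGACGT core were thus more frequent in the members' promoters as a group (67.3% and 19.4% of 98) than in all promoters, with or without a peak. The median GC content was 61.8% at promoters with a peak, 59.0% at those without and 55.2% over all genes. The ER stress element, which is CCAAT followed after 9 bases by the letters CCACG, was found at 0 of the 98 and at 26 of the 17492. In the sequences printed above, TGACGT stands in the Sec23b promoter close to the start, with CCAAT on the opposite strand before it, and the GC box in those of Copa, Sec24c, Sec61b and Rab28.

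Genes of the same route that the symbols did not select were marked about as often as the coat, channel and p24 genes together, of which 23 of 36 were marked (63.9%, interval 46.2% to 79.2%). Of 60 listed, 30 had gene-end peaks in both lists, 6 in the Cre list alone and 6 in the GFP list alone, so 70.0% were marked (interval 56.8% to 81.2%). Sar1a, the GTPase that starts COPII coats, had 27 fragments in Cre cells and 34 in GFP cells. Xbp1, a transcription factor of the unfolded protein response, had 16 in Cre cells and 22 in GFP cells, and Creb3l2, the activator of Sec23a, had 18 in Cre cells and 20 in GFP cells.

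Scfd1, which acts with SNAREs of ER and Golgi transport, had 14 fragments in Cre cells and 24 in GFP cells, and Kdelr1, a receptor that returns ER proteins in COPI carriers, had 21 in Cre cells and 16 in GFP cells. Arcn1, the delta subunit of COPI, had a gene-end peak of 16 fragments in the Cre list alone, but over its neighbourhood peaks covered 392 bp in the Cre list, against 742 bp in the GFP list. Preb, the exchange factor of SAR1, had 15 in the GFP list alone, and Uso1, the tether that Rab1 recruits, was in the GFP list alone as well. Rabggta, which attaches lipid to Rabs, and Chm, which presents Rabs to that enzyme, were marked in neither.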

How the data were processed

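Peaks of 1 H3K27ac library per condition were used as deposited, 1 list per library. Per the submitters' processing notes, mm10 was the build and BWA, Picard, SICER and bcl2fastq (1.8.4) were among the tools, while the lists have the column order of MACS2; its settings and control library are not given in those notes. The deposited score is the whole part of 10 times the −log10 q-value. The deposited fold is a ratio of observed to expected pileup at the summit with 1 added to both, given with −log10 p and the offset of the summit. Fold and −log10 p were solved jointly for a whole-number pileup and a Poisson expectation (tolerance 0.001, solved for 100% of peaks, checked on simulated data). Windows were 1 kb around gene ends and the gene plus 10 kb, with any shared base counted. Alternatives changed thresholds, windows, overlap and neighbours. Shares carry exact Clopper-Pearson, pileups exact Poisson and ratios conditional binomial 95% intervals. With 1 library per condition no test was made.

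Members, classes and lists were chosen with earlier results of these data known. By the rule for naming genes, all coat, channel and p24 genes were described, and of the rest the highest or most different members. Names not reached by it (such as members with no peak) were chosen after their values were seen. Strand and promoters came from RefSeq (GRCm38.p6), which matched 98 members and not the other 19. Python 3.11.15, numpy 2.4.6, pandas 2.3.3, scipy 1.17.1 and matplotlib 3.10.9 were used.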

Additional observations from a re-analysis of the deposited data

How the results depend on the processing

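Of the members with gene-end peaks in both lists, 37 as deposited, 11 were left with a −log10 q of at least 10, 20 with a summit pileup of at least 15 and 21 with the top 5000 peaks of each list, which all hold fewer peaks. The other 6 alternatives stayed within 1.5 times of 37, the largest count being 40. The 6 members of the Cre list alone became 3 when no GFP peak was allowed within the gene plus 10 kb, and the 8 of the GFP list alone became 5 at a pileup of at least 15. The Cre share of covered length around all members (46.8%) ran from 43.6% to 52.9%, the highest at a pileup of at least 15, so its lean to the GFP list turned there. Around COPI genes the share of 49.7% became 79.7% at a −log10 q of at least 10, 78.1% at a pileup of at least 15 and 68.5% without gene-end peaks, and around the Rab-named regulators 38.5% became 0% under each of the first 2. Few peaks were left at these settings. With a −log10 q of at least 10, the Rab-named regulators kept only the GFP peak of Rab5if (342 bp). The COPI genes then kept the GFP peak of Copz1 (349 bp). Their remaining Cre peaks were those of Copa (197 and 341 bp), Copg1 (194 bp), Cope (159 bp) and Copz1 (480 bp). Without gene-end peaks, COPI genes kept 3 Cre peaks (862 bp) and 2 GFP peaks (396 bp). These shares thus rest on few peaks, and what moved them was not tested further. Ranges were 36.3% to 50.2% for COPII, 44.4% to 64.7% for the channel, 32.9% to 53.6% for p24, 44.4% to 51.3% for Rab GTPases and 38.4% to 60.7% for other Sec genes. No paired analysis was possible because each condition had 1 library and no test. Pileups of 7 to 63 fragments limit all comparisons of height.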
